A study of Mus musculus with 18 samples.

Results

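The 9 genes described here encode proteins that carry iron into the cell, store it, release it from storage, sense its level and move it into mitochondria. They were chosen by symbol: Tfrc, Slc11a2, Fth1, Ftl1, Ncoa4, Aco1, Ireb2, Slc25a37 and Slc25a28. All 9 were found among the 56748 gene identifiers in the count tables, and all 9 passed the filter on low counts, which 13690 genes passed. The tables hold poly(A)-selected RNA-seq of splenic CD8 T cells, purified by flow sorting from wild-type mice on 3 diets, with 6 libraries each. Control mice ate a normal diet for 12 weeks (ND), high fat mice ate a high fat diet for 12 weeks (HFD), and switched mice changed over to the normal diet after 6 weeks of high fat feeding and stayed on it for 6 more (SW). The sources used here give no mouse strain, age or diet composition. Because the labels do not say that each library came from a separate mouse, the spread behind every p-value may be partly technical.

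Cells take up transferrin-bound iron through the transferrin receptor, reduce it in endosomes and pass it to the cytosol, where it is used, stored in ferritin shells or handed to mitochondria for haem and iron-sulphur clusters. When labile iron is scarce, the iron regulatory proteins bind hairpins called iron-responsive elements, which blocks translation of ferritin mRNA and protects transferrin receptor mRNA from decay. Ferritin translation can therefore change with no change in ferritin mRNA, which is what these libraries measure. Activated T cells depend on the transferrin receptor to proliferate, and labile iron catalyses the lipid peroxidation that drives ferroptosis, the form of cell death named in the title of the series.

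Iron-responsive elements are shown here because they are the sequence feature that ties Tfrc to the ferritin genes. The search looked on the transcript strand for a C, any 5 bases, the loop CAGTGN and any 5 bases, with the 5 bases on each side of the loop able to pair (A with T, G with C or G with T). It was run on GENCODE M21 transcripts of the GRCm38 build. The capitals mark the loop, and each line reads 5′ to 3′ on the transcript strand.
Fth1, 5′ UTR in exon 1, chr19:9982731-9982760, plus strand: tttcctgcttcaaCAGTGCttgaacggaac
Ftl1, 5′ UTR in exon 1, chr7:45459779-45459808, minus strand: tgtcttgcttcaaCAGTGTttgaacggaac
Tfrc, 3′ UTR in exon 19, chr16:32631218-32631247, plus strand: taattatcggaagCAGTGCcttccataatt
Tfrc, 3′ UTR in exon 19, chr16:32631597-32631626, plus strand: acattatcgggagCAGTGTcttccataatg
Tfrc, 3′ UTR in exon 19, chr16:32631662-32631691, plus strand: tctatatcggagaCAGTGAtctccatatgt
Tfrc, 3′ UTR in exon 19, chr16:32631709-32631738, plus strand: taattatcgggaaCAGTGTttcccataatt
The same pattern occurred in the 5′ UTR of 31 of 20597 coding genes (0.1505%) and in the 3′ UTR of 129 of 20979 (0.6149%). Both ferritin genes carried it once, ahead of the coding sequence, and Tfrc carried it 4 times, all in its last exon. No match was found in the other 6 genes, which says only that this pattern is not in their annotated UTRs. The pattern requires 5 unbroken pairs, so it would miss an element with an unpaired base among them, in Slc11a2 as in any other gene. A match is a description of the sequence and not a measured binding site.

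The libraries held between 11947339 and 16398340 counts, and the 9 genes took 0.0993% to 0.115% of them. Cd8a, a chain of the CD8 co-receptor, averaged 1494 CPM in ND, and the 8 CD8 T cell identity genes summed to 6065 ± 211 CPM in ND, 6168 ± 134 in SW and 6225 ± 273 in HFD (SD, n = 6). CPM is the count of a gene scaled to the size of its library, after TMM adjustment of that size. Markers of other spleen cells were present at low levels. The 11 erythroid markers in the tables summed to 41.1 ± 12.1 CPM in ND, 58.3 ± 21.9 in SW and 132 ± 122 in HFD (SD, n = 6), with HFD libraries from 19.8 to 356 CPM, and the 8 B cell markers, most of it from Ighm, to 496 ± 22.2, 548 ± 33.2 and 582 ± 52.8 CPM. Cd79a, of the B cell list, averaged 1.23 CPM in ND, 1.99 in SW and 1.75 in HFD. No listed marker was at 0 in every library. The library HFD 4 stood apart: it had the highest erythroid sum and 17570 genes with a count, against 18963 to 20155 in the others. A second split separated replicates 1 and 2 of every diet from replicates 3 to 6. In bulk RNA, fewer cells of a type and less RNA per cell cannot be told apart.

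None of the 9 genes passed the test in any comparison between diets. Genes were called at an adjusted p under 0.05 in edgeR's quasi-likelihood test, with Benjamini-Hochberg adjustment over all 13690 tested genes. Between HFD and ND, 0 of 9 were called against 1.62% of all tested genes. Between SW and ND, 0 of 9 were called against 0.0146% of all, and between SW and HFD 0 of 9 against 0.124% of all. For any difference among the 3 diets, 0 of 9 were called against 0.898% of all. At an unadjusted p under 0.05, 1 member passed between HFD and ND, the gene Tfrc, where 14.9% of all tested genes did. None of the 9 passed that mark between SW and ND (6.81% of all tested genes), between SW and HFD (11.1%) or for any difference (13.3%). DESeq2 and limma-voom also called 0 of 9 in each comparison.

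The diet differences of the 9 genes were small. The median log2 fold change over the 9 was -0.02 for HFD against ND, -0.03 for SW against ND and -0.00 for SW against HFD, beside 0.01, 0.00 and -0.00 over all tested genes. The median size of the change, without its sign, was 0.07, 0.05 and 0.08 for the 9 and 0.10, 0.07 and 0.09 over all tested genes. Over the 27 fold changes, the 95% intervals reached from a fold of 0.762, for Aco1 in SW against HFD, to 1.22, for Aco1 in HFD against ND. Differences within these intervals could not be resolved with 6 libraries per diet. For every one of the 9 genes the libraries of the 3 diets overlapped.

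**Figure D1:**
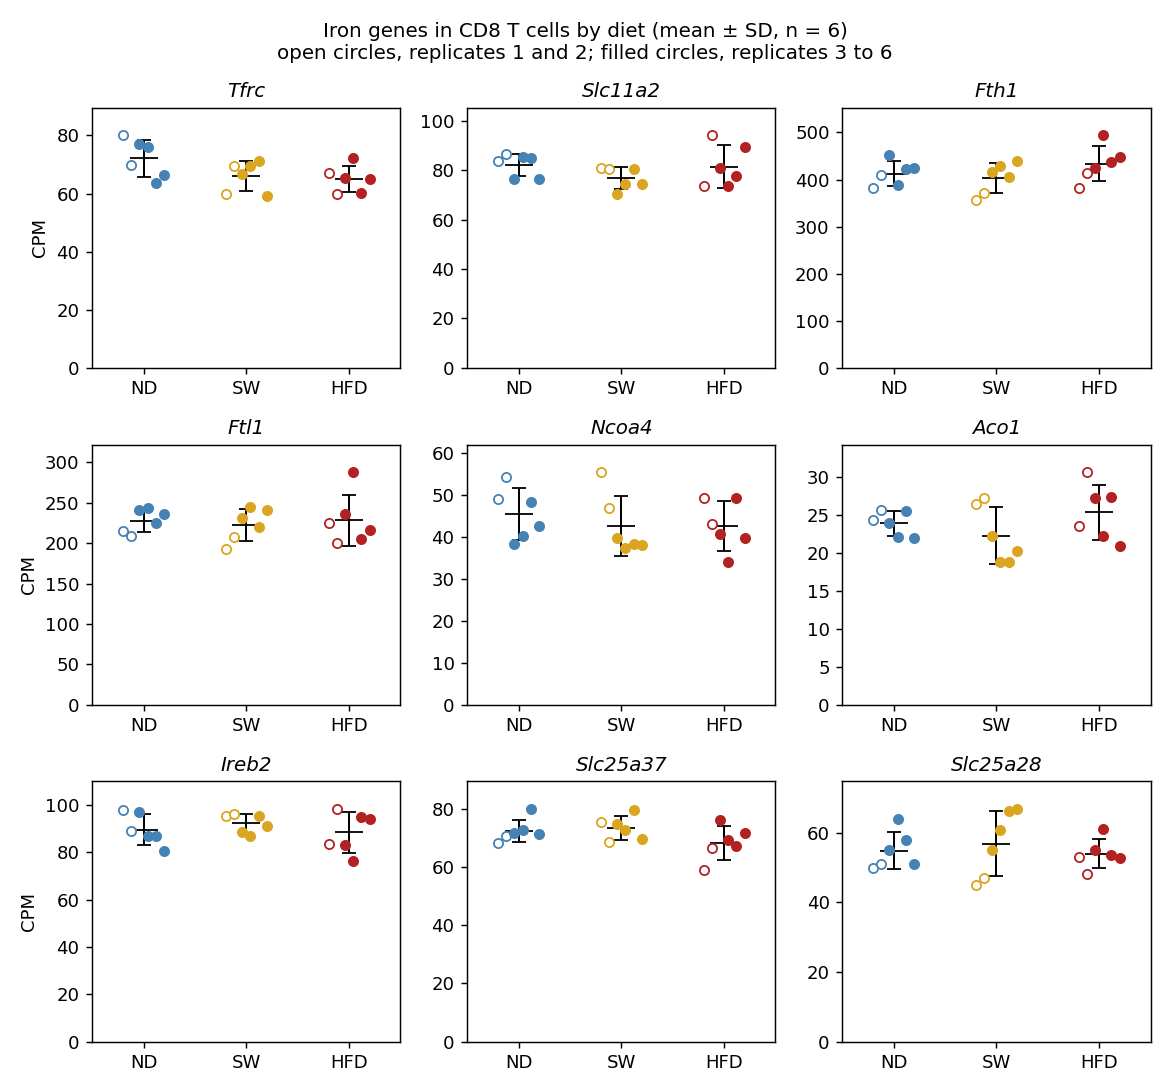
Level of each of the 9 iron genes in each library (CPM, axis from 0) by diet, with open circles for replicates 1 and 2, filled circles for replicates 3 to 6, and bars for the mean ± SD of 6 libraries. The 3 diets overlap in every panel; Ncoa4 averages higher and Slc25a28 lower in the open circles than in the filled ones.

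Tfrc (ENSMUSG00000022797, chr16:32608920-32632794, plus strand) encodes the transferrin receptor, the main route of iron into lymphocytes. Its level ran from 63.6 to 80.0 CPM in ND with a median of 72.9, from 59.2 to 71.4 in SW with a median of 68.0, and from 59.8 to 72.1 in HFD with a median of 65.3. ND held the 3 highest libraries of the 18, ND 1, ND 3 and ND 4, while ND 2, ND 5 and ND 6 lay inside the range of the other diets. The means were 72.1 ± 6.52, 66.0 ± 5.24 and 65.0 ± 4.56 CPM (SD, n = 6). The log2 fold change was -0.15 ± 0.07 (SE) for HFD against ND, with a 95% interval from -0.28 to -0.02, and 5 of 6 HFD libraries lay below the ND mean. Its edgeR p was 0.0298 before adjustment and 0.274 after, so the difference was not called. The adjusted p was 0.758 for SW against ND, a log2 fold change of -0.13 ± 0.07 (SE) in edgeR, and SW and HFD differed by 0.02 with an interval from -0.11 to 0.16. Both first comparisons share the ND libraries. In replicates 3 to 6 alone the HFD against ND log2 fold change was -0.11, and it was -0.22 in a fit that held the erythroid marker level as a term.

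Slc11a2 (ENSMUSG00000023030, chr15:100387898-100425072, minus strand) encodes DMT1, the carrier that passes ferrous iron out of the endosome after the transferrin receptor has delivered it. In ND it ran from 76.5 to 86.4 CPM with a median of 84.3, from 70.2 to 81.0 in SW with a median of 77.5, and from 73.4 to 94.1 in HFD with a median of 79.2. The HFD range enclosed the whole ND range, and SW held the lowest library. Log2 fold changes were -0.10 for SW against ND, -0.08 for SW against HFD and -0.01 for HFD against ND, none of them called. All 6 SW libraries lay below the ND mean and all 6 below the HFD mean. No source used here states the counting strand, and Gm5475 overlaps Slc11a2 on the opposite strand with at most 11 counts in any library.

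Fth1 (ENSMUSG00000024661, chr19:9980598-9985098, plus strand) encodes the ferritin heavy chain, whose ferroxidase activity loads iron into the shell. The ND libraries held from 381 to 452 CPM with a median of 415, from 357 to 439 in SW with a median of 411, and from 382 to 494 in HFD with a median of 431. The highest library was HFD 4, which also had the highest erythroid sum and the highest B cell marker sum, most of the latter from Ighm. The part of other cells in its ferritin level was not tested. HFD against ND gave a log2 fold change of 0.07 ± 0.06 (SE), or 0.03 without HFD 4. SW against HFD gave -0.11 ± 0.06 (SE), also not called, with an adjusted p of 0.529 in edgeR.

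Ftl1 (ENSMUSG00000050708, chr7:45457944-45459884, minus strand) encodes the ferritin light chain, which helps form the mineral core. The ND libraries held from 208 to 243 CPM with a median of 230.0, from 192 to 244 in SW with a median of 225, and from 200.4 to 288 in HFD with a median of 220.5. HFD 4 was again the highest, and the other 5 HFD libraries, up to 236 CPM, lay within the SW range. HFD against ND gave a log2 fold change of 0.00 ± 0.07 (SE), and without HFD 4 it was -0.08; for SW against HFD it was -0.04, and 0.04 without HFD 4. None of these was called. Reads of ferritin copies may be shared: the pseudogene Ftl1-ps1 held 46 to 135 counts, 1.78% to 3.06% of those of Ftl1, and Fth-ps2 held 0 to 11. Gm10252 overlaps Ftl1 on the opposite strand with at most 20 counts.

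Ncoa4 (ENSMUSG00000056234, chr14:32159865-32179855, plus strand) encodes the receptor that carries ferritin to the lysosome, where its iron is released. In ND it ran from 38.3 to 54.4 CPM with a median of 45.4, from 37.4 to 55.4 in SW with a median of 39.0, and from 33.9 to 49.3 in HFD with a median of 41.9. HFD 4, the library with the most ferritin mRNA, had the least Ncoa4. HFD and SW each stood at a log2 fold change of -0.09 ± 0.11 (SE) against ND, and neither was called. Its 95% interval for HFD against ND, a fold of 0.804 to 1.09, was among the wider ones of the 9.

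**Figure D2:**
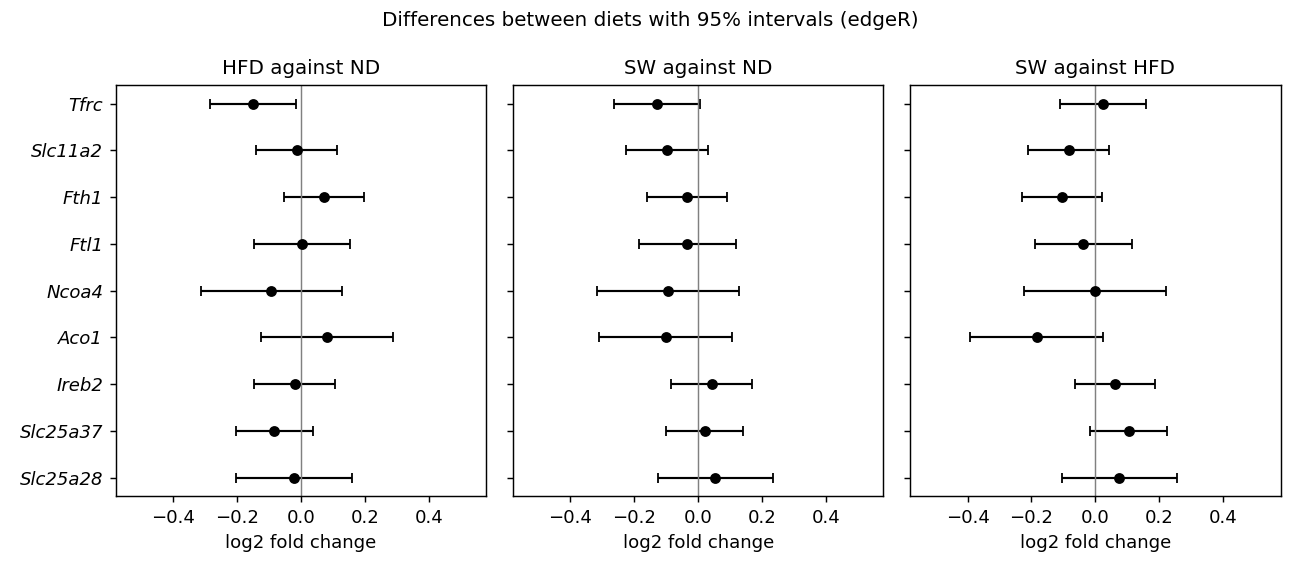
The log2 fold change of each of the 9 iron genes in the 3 comparisons of diets, with 95% intervals from edgeR. Every interval except that of Tfrc in HFD against ND, from -0.28 to -0.02, includes 0, and Ncoa4 and Aco1 have the widest.

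Aco1 and Ireb2 encode the iron regulatory proteins that read iron-responsive elements such as those printed above. Aco1 (ENSMUSG00000028405, chr4:40143081-40198338, plus strand) encodes the protein that acts as cytosolic aconitase while it holds an iron-sulphur cluster and binds RNA without it. In ND it ran from 22.0 to 25.7 CPM with a median of 24.2, from 18.8 to 27.2 in SW with a median of 21.2, and from 21.0 to 30.7 in HFD with a median of 25.5. The ND libraries were the most alike, and SW and HFD spread to both sides of them. SW against HFD, at -0.18 ± 0.10 (SE), was the largest log2 fold change in size among the 27, with an adjusted p of 0.50 in edgeR; it was not called. In SW, the replicates 1 and 2 were at 26.4 and 27.2 CPM and replicates 3 to 6 at 18.8 to 22.2, and SW against ND moved from -0.10 over all libraries to -0.22 in replicates 3 to 6 alone, also not called.

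Ireb2 (ENSMUSG00000032293, chr9:54863789-54912530, plus strand) encodes the second regulatory protein, which is degraded through Fbxl5 when iron is plentiful. Its level ran from 80.8 to 97.9 CPM in ND with a median of 87.9, from 86.8 to 96.4 in SW with a median of 93.2, and from 76.4 to 98.2 in HFD with a median of 88.9. The SW libraries lay inside both other ranges, and the lowest was HFD 4. Log2 fold changes were -0.02, 0.04 and 0.06 for HFD against ND, SW against ND and SW against HFD, none of them called.

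Slc25a37 and Slc25a28 encode mitoferrin-1 and mitoferrin-2, the carriers that bring iron across the inner mitochondrial membrane. Mitoferrin-1 is best known from developing red cells, and mitoferrin-2 from most other cells. Slc25a37 (ENSMUSG00000034248, chr14:69241848-69285112, minus strand) ran from 68.4 to 79.8 CPM in ND with a median of 71.4, from 68.5 to 79.6 in SW with a median of 73.7, and from 58.9 to 76.2 in HFD with a median of 68.2. The lowest library was HFD 1, and HFD 4, with the most erythroid RNA, was at 69.1 CPM, inside the ND range. Its log2 fold change was -0.08 ± 0.06 (SE) for HFD against ND and 0.10 ± 0.06 for SW against HFD, where all 6 SW libraries lay above the HFD mean; neither was called.

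Slc25a28 (ENSMUSG00000040414, chr19:43663801-43674881, minus strand) ran from 49.9 to 63.8 CPM in ND with a median of 53.1, from 45.1 to 66.7 in SW with a median of 57.9, and from 48.3 to 61.1 in HFD with a median of 53.2. SW held both the lowest and the highest libraries. In SW, replicates 1 and 2 were at 45.1 and 47.1 CPM and replicates 3 to 6 at 55.0 to 66.7, so most of the spread within that diet followed the replicate numbers. Its log2 fold change was -0.02 for HFD against ND, 0.05 for SW against ND and 0.08 for SW against HFD, none of them called.

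The split by replicate number was larger than that by diet in 6 of the 9 genes: Ncoa4, Aco1, Ireb2, Slc25a28, Ftl1 and Fth1 had a ratio between the means of the 2 sets further from 1 than any ratio between diet means. Ncoa4 averaged 49.7 ± 4.61 CPM in the 6 libraries numbered 1 or 2 and 40.5 ± 4.38 in the 12 numbered 3 to 6 (SD), a ratio of 1.23. Aco1 had a ratio of 1.16, while Slc25a28 was at 0.842, Ftl1 at 0.884 and Fth1 at 0.894. Tfrc stood at 0.999, Slc25a37 at 0.933, and Ireb2 and Slc11a2 at 1.06 each. The labels do not say what the numbers stand for, and these ratios are given as a description with no test. Each diet has 2 libraries in the first set and 4 in the second, so the split is balanced over the diets.

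In the deposited FPKM, which are scaled by length, ferritin mRNA stood far above the other 7. Ftl1 averaged 175 ± 16.8 FPKM and Fth1 124 ± 9.77 (SD, n = 18), at ranks 254 and 351 of the 13690 tested genes. Slc25a28 followed at 15.2 ± 1.75 FPKM, Slc11a2 at 13.1 ± 1.03, Slc25a37 at 12.3 ± 0.815 and Tfrc at 11.3 ± 0.991. Ireb2 averaged 9.84 ± 0.710, Aco1 5.50 ± 0.759 and Ncoa4 4.82 ± 0.683. In FPKM, Ftl1 lay above Fth1, Fth1 above Slc25a28 and Ireb2 above Aco1 in 18 of 18 libraries. This order depends on the lengths used for the FPKM, which were not checked. Without scaling by length the ferritin genes stood the other way round, with Fth1 at a mean of 416 CPM and Ftl1 at 226. It is therefore not shown which of these 2 had more mRNA. Each other pair of neighbours in the order stood the other way round in 3 to 5 of the 18 libraries, and their order was not tested.

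**Figure D3:**
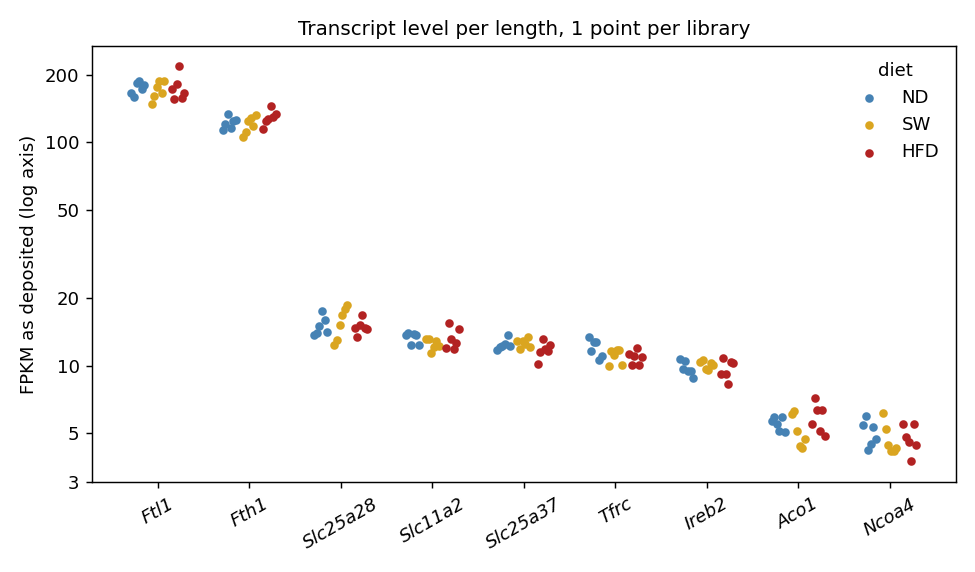
FPKM of the 9 iron genes in each library on a log axis, ordered by the mean over 18 libraries and coloured by diet. Ftl1 and Fth1, at means of 175 and 124, lie above all others, and the 3 diets overlap for every gene.

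Ratios of FPKM within a library compared partners between diets. Their absolute size depends on the lengths used for the FPKM, so they do not show which partner had more mRNA. In CPM, Fth1 lay above Ftl1, at means of 413 and 228 in ND. Fth1 to Ftl1 was 0.700 ± 0.0492 in ND, 0.700 ± 0.0147 in SW and 0.739 ± 0.0750 in HFD (SD, n = 6). Mitoferrin-2 to mitoferrin-1 mRNA was 1.22 ± 0.10, 1.25 ± 0.206 and 1.27 ± 0.129 in the same order. Ireb2 to Aco1 was 1.78 ± 0.136 in ND, 2.00 ± 0.285 in SW and 1.67 ± 0.239 in HFD. Tfrc to Fth1, uptake over storage, was 0.0985 ± 0.0129, 0.0924 ± 0.00987 and 0.0844 ± 0.00736. The diets overlapped in each of the 4 ratios, and none was tested.

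Of 4 pairs of genes compared over the 18 libraries on log2 CPM, the ferritin chains moved together. Fth1 and Ftl1 had a Pearson r of 0.65 (permutation p = 0.00387, adjusted over the 4 pairs 0.0155) and a Spearman rho of 0.55 (permutation p = 0.0193, adjusted 0.0772). After the mean of each diet was removed, r was 0.68 (permutation p = 0.00184, adjusted 0.00736) and rho 0.63 (permutation p = 0.00629, adjusted 0.0252). On log2(FPKM + 0.1) r was 0.65. The 2 libraries farthest from the median of Fth1, SW 1 and HFD 4, lay at the opposite ends of its range. Without them, r was 0.27 (permutation p = 0.308). They were picked by their Fth1 values, which narrows the range of Fth1 and by itself can lower r. This value therefore cannot show what the relation rested on. Within replicates 3 to 6 r was 0.47 (permutation p = 0.123, 12 libraries), and within replicates 1 and 2 it was 0.16 (exact permutation p = 0.772, 6 libraries). Values of this size were not particular to the ferritin pair. Over the 18 libraries Ftl1 had an r of 0.68 with Slc25a28, -0.78 with Ncoa4 and -0.72 with Ireb2, pairs that were not tested. Slc25a37 with Slc25a28 gave r = 0.29 and rho = 0.37 (permutation p = 0.245 and 0.136, adjusted 0.49 and 0.272), and without ND 5 and HFD 1 r was 0.31. Tfrc with Slc11a2 gave r = -0.07 and rho = -0.12 (permutation p = 0.786 and 0.645, adjusted 0.926 and 0.683), and Tfrc with Fth1 r = -0.02 and rho = -0.10 (permutation p = 0.926 and 0.683, adjusted 0.926 and 0.683). Without ND 1 and ND 3 these 2 values of r were -0.12 and 0.01.

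**Figure D4:**
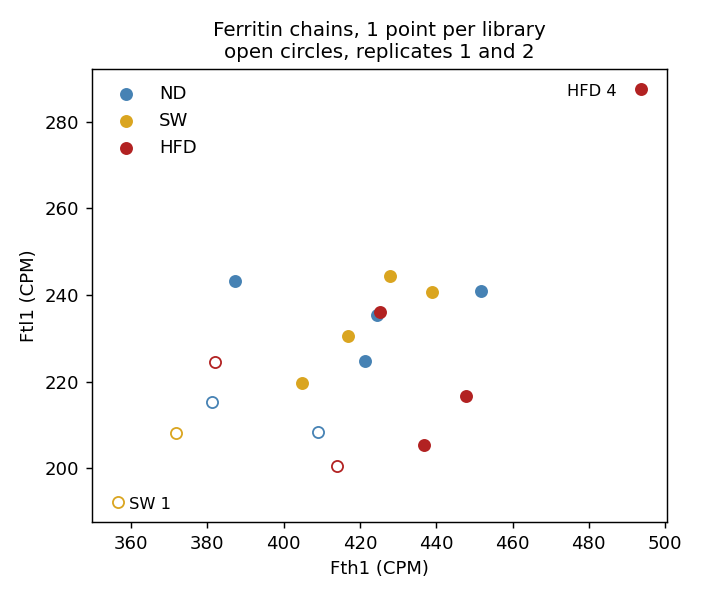
Ftl1 against Fth1 in each library (CPM; neither axis starts at 0), coloured by diet, with open circles for replicates 1 and 2. SW 1 and HFD 4 lie at the opposite ends, and r falls from 0.65 to 0.27 without them.

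The genes whose level across the 18 libraries was most like that of a member were found among 8254 named genes of at least 10 CPM. Tfrc was closest to Ciapin1, a cytosolic iron-sulphur cluster assembly factor, at a Pearson r of 0.73, then to Ssh3 at 0.72 and the glucose transporter gene Slc2a1 at 0.70. Fth1 was closest to Aldoa at 0.88, Ube2m and Rac2 at 0.87 each, and Ftl1 to Sept1 at 0.89, Ap2s1 at 0.88 and Rabep2 at 0.87. Ncoa4 was closest to Zbtb33 at 0.93, Psme4 at 0.91 and Atm at 0.89, and Slc25a28 to Setd4 at 0.90, Sec11c at 0.87 and Fkbp2 at 0.85. Aco1 followed Retreg2, Jade2 and Rap2c at 0.89, 0.88 and 0.88, and Ireb2 followed Chd7, Helz and Cbll1 at 0.81, 0.80 and 0.80. Slc11a2 followed Dennd1b, Ankrd13c and Miga1 at 0.77, 0.77 and 0.76, and Slc25a37 followed Gpatch11, Dtymk and Caml at 0.82, 0.80 and 0.78. These are descriptions over libraries that share the split by replicate number. In the 12 libraries numbered 3 to 6, r with the closest gene was between 0.73, for Slc25a37, and 0.85, for Ncoa4. The closest genes were chosen by their r over all 18 libraries, which include these 12. These values are therefore not a separate check of the likeness.

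Around the 9 genes, a list of 80 other genes of iron uptake and sensing, haem and iron-sulphur clusters had 71 tested members. Between HFD and ND, 2 of the 71 were called, against 1.62% of all tested genes. Of these 2, 1 was higher (0.665% of all) and 1 lower (0.957% of all). An unadjusted p under 0.05 was found for 9 of 71, where 14.9% of all tested genes had one. Exoc6, an exocyst subunit needed for transferrin receptor recycling in red cell precursors, rose from a mean of 32.0 ± 3.12 CPM under ND to 40.0 ± 3.49 CPM under HFD (SD, n = 6). ND libraries ran from 26.6 to 35.4 CPM, SW from 30.6 to 38.1 and HFD from 36.2 to 45.9, so HFD and ND did not overlap. The log2 fold change was 0.33 ± 0.07 (SE), with an adjusted p of 0.0245 in edgeR, and it was lost without ND 1, ND 2, ND 5 or HFD 4, at adjusted p from 0.0528 to 0.0642. Ndufab1, the mitochondrial acyl carrier protein, a part of complex I and of the iron-sulphur cluster assembly complex, fell from a mean of 37.7 ± 1.64 CPM under ND to 30.1 ± 3.48 under HFD. ND ran from 35.9 to 40.5 CPM, SW from 32.6 to 36.5 and HFD from 25.1 to 34.1, with no overlap of HFD and ND. The log2 fold change was -0.33 ± 0.07 (SE) and the adjusted p 0.0173 in edgeR, and Ndufab1 was called in each of the 18 fits that left out 1 library, at adjusted p from 0.0101 to 0.0434. Neither gene was called by edgeR in 3 of the other fits. The share of all tested genes whose HFD and ND libraries did not overlap was not computed. In the 12 libraries of replicates 3 to 6 alone, Ndufab1 kept its log2 fold change, at -0.32 ± 0.09 (SE, edgeR adjusted p 0.0649), while that of Exoc6 was 0.20 ± 0.08 (adjusted p 0.203). With the erythroid level as a term, Ndufab1 was at -0.23 (edgeR adjusted p 0.158) and Exoc6 at 0.29 (0.131), and without HFD 1 and HFD 4 together they were at -0.25 (0.0636) and 0.25 (0.123).

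Other marker sums also averaged higher in HFD than in ND, with overlapping libraries. Besides the erythroid sum given above, the 7 neutrophil markers summed to a mean of 6.29 CPM under ND, with libraries from 4.33 to 11.04, and of 12.8 CPM under HFD, from 4.21 to 22.98. In the same order, with the SD of 6 libraries, the 12 monocyte and macrophage markers summed to 21.9 ± 4.04 and 28.5 ± 4.67 CPM, the 5 dendritic cell markers to 66.6 ± 20.6 and 83.1 ± 21.2, and the 15 proliferation genes to 423 ± 13.7 and 457 ± 46.2. In edgeR 0 of the tested genes of these 5 lists were called between HFD and ND, against 1.62% of all tested genes. An unadjusted p under 0.05 was found for 6 of 8 erythroid, 3 of 5 neutrophil and 2 of 5 monocyte and macrophage genes. The same held for 2 of 5 dendritic cell and 4 of 15 proliferation genes, and for 14.9% of all tested genes. The B cell sum given above was also higher in HFD. Of the 4 tested genes of that list edgeR called 1, Ighm (unadjusted p = 0.000349), against 1.62% of all tested genes. The erythroid sum itself differed with diet, averaging 41.1 CPM in ND and 132 in HFD. The fits above therefore could not fully separate the erythroid level from diet. Its part in the differences of Exoc6 and Ndufab1 was not tested beyond those fits. The part of the B cell list and of the other 4 lists was not tested.

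SW against ND called 0 of the 71 genes in edgeR, against 0.0146% of all tested genes, with 3 of 71 at an unadjusted p under 0.05 (6.81% of all). SW against HFD also called 0 of 71, against 0.124% of all, with 9 of 71 at an unadjusted p under 0.05 (11.1% of all). Against HFD, SW had a log2 fold change of -0.23 ± 0.07 (SE) for Exoc6 (adjusted p = 0.233) and of 0.21 ± 0.07 for Ndufab1 (adjusted p = 0.258), with the SW mean between those of ND and HFD for both genes. For any difference among the 3 diets, 1 of 71 was called against 0.898% of all, the gene Ndufab1, at an adjusted p of 0.0433 in edgeR. DESeq2 called 4 of the 71 between HFD and ND, Ndufab1, Exoc6, Pcbp1 and Alas2, where it called 471 genes in all against 222 with edgeR, and it called 0 of the 71 in both comparisons with SW.

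**Figure D5:**
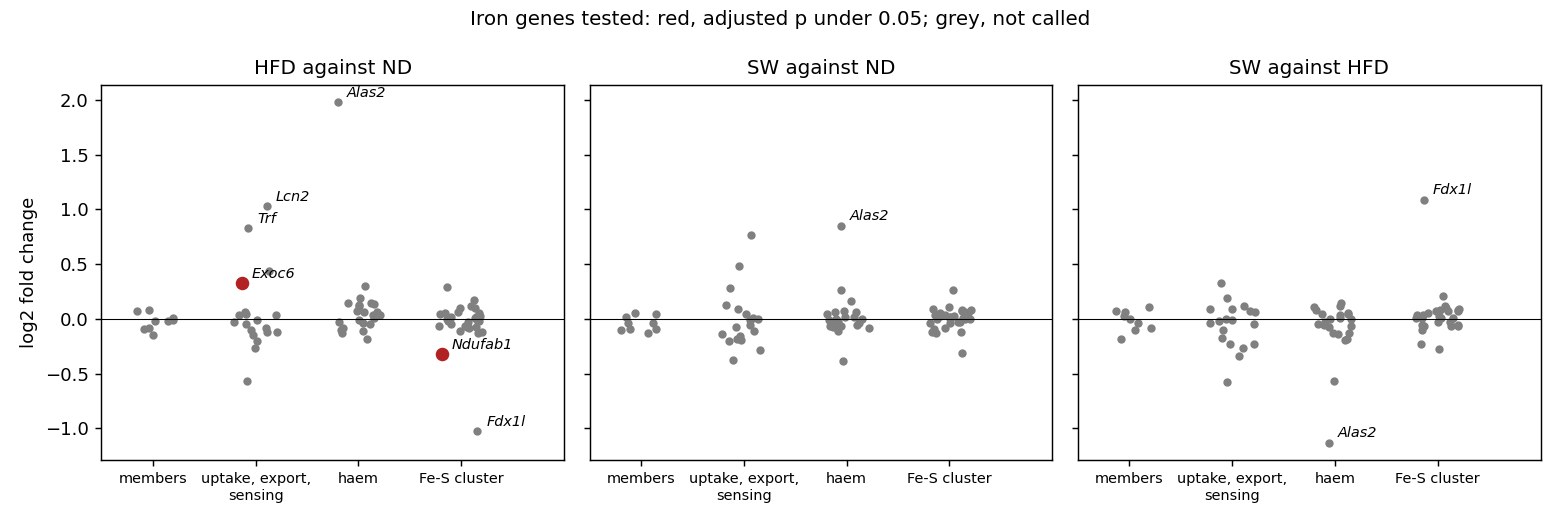
The log2 fold change (vertical axis) of the 9 members and of the 71 other iron genes tested, 1 point per gene, grouped along the horizontal axis by list for each of the 3 comparisons, with calls at an adjusted p under 0.05 in red. Only Exoc6 and Ndufab1, in HFD against ND, are red; Alas2 and Fdx1l lie far from 0 without being called.

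Iron export and chaperone genes are given by their levels. Slc40a1, which encodes the iron exporter ferroportin, held at most 21 counts in any library and was not tested. Pcbp1, an iron chaperone that loads ferritin, ran from 295 to 310 CPM in ND, from 281 to 314 in SW and from 265 to 289 in HFD, so its ND and HFD libraries did not overlap. The share of all tested genes with no such overlap was not computed. For Pcbp1 the HFD against ND log2 fold change of -0.12 ± 0.04 (SE) was not called in edgeR, with an adjusted p of 0.139. DESeq2 called it, at an adjusted p of 0.0121, as the only 1 of 35 fits to do so, and the adjusted p reached 0.303 in the others. Steap3, an endosomal iron reductase, averaged 2.41 ± 0.501 CPM under ND, 2.10 ± 0.581 under SW and 2.11 ± 0.612 under HFD (SD, n = 6), and did not pass the test. Fbxl5, the iron-sensing ubiquitin ligase subunit that marks Ireb2 protein for degradation, averaged 67.0 ± 3.27 CPM in ND, 61.9 ± 3.65 in SW and 69.8 ± 6.63 in HFD, with an edgeR adjusted p of 0.278 or higher in each comparison of 2 diets.

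A haem gene gave the largest fold change on the list, at a low level. Alas2, the red cell enzyme that starts haem synthesis and itself an erythroid marker, averaged 0.831 ± 0.490 CPM under ND, 1.54 ± 0.868 under SW and 3.35 ± 3.09 under HFD (SD, n = 6), a log2 fold change of 1.98 ± 0.58 (SE) that was not called in edgeR (adjusted p = 0.0915) but was in DESeq2 (adjusted p = 0.0337) and in edgeR without HFD 5 (adjusted p = 0.0304); it is named here after its values were seen. Its highest library, at 8.74 CPM, was in HFD, and the erythroid sum in HFD ran up to 356 CPM. Hmox1, the inducible enzyme that breaks haem down and frees its iron, averaged 2.69 ± 0.658 CPM in ND, 2.07 ± 0.624 in SW and 3.06 ± 0.542 in HFD, with an adjusted p of 0.328 for SW against HFD in edgeR. Bach1, the haem-binding repressor of Hmox1 and ferritin genes, averaged 40.8 ± 5.35, 37.9 ± 5.59 and 35.9 ± 4.23 CPM in ND, SW and HFD. Fech, which inserts iron into haem, averaged 22.0 ± 1.65, 21.1 ± 0.775 and 23.1 ± 1.57 CPM. Neither gene was called.

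In the iron-sulphur cluster list, 1 of 29 tested genes was called between HFD and ND (1.62% of all tested genes), the Ndufab1 described above. The log2 fold change was below 0 in 16 of the 29 and in 6512 of all 13690 tested genes. Glrx5, a mitochondrial cluster carrier, averaged 47.3 ± 4.04 CPM in ND, 48.0 ± 4.52 in SW and 45.2 ± 2.65 in HFD (SD, n = 6), and Slc25a39, a mitochondrial glutathione carrier from the haem list, 36.4 ± 2.33, 35.9 ± 3.29 and 37.3 ± 3.86 CPM. Neither Glrx5 nor Slc25a39 was called in any comparison.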

How the data were processed

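The files held raw counts and FPKM per gene and library, as deposited by the authors; FPKM is the count scaled by transcript length and library size, and the deposited FPKM followed from the deposited counts. Reads were trimmed with fastp and the genome build was GRCm38 (mm10), per the submitters' processing notes. The aligner, counter, annotation and strand setting: not given in the sources used here. Symbols came from GENCODE M21, which matched 52125 of 56748 gene identifiers. Each gene was tested with edgeR 4.0.16 (R 4.3.3; TMM scaling, filterByExpr, robust quasi-likelihood F test) on the counts of all 18 libraries with diet as the only term, and p-values were adjusted over all 13690 tested genes. Alternatives were DESeq2 1.42.0, limma 3.58.1 with voom or on log2(FPKM + 0.1) and log2(FPKM + 1), other scalings and filters, other terms, and leaving out libraries. The fitting code was tested on simulated counts. Standard errors were taken from the fold change and its F value. A fold change called under no setting was compared only in size with its standard error. The 9 genes, the wider lists and the marker lists were chosen with earlier results of these data known. All 9 members were named, of the wider list the called genes and 11 chosen for their role (2 of these are not reported here), and for each member the 3 most alike genes. Permutation tests of the 4 correlations were two-sided, with 100000 resamples, or exact for 6 libraries. Same-numbered libraries of different diets deviated together in 7 of 18 pairs (r over 0.1), so the numbers were not taken to pair samples. No 2 libraries held identical counts.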

Additional observations from a re-analysis of the deposited data

How the results depend on the processing

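No member was called under any of the alternatives, so 0 of 9 stood in each comparison. Of 918 member fold changes refitted, 905 lay within 1 standard error of the value reported and 13 did not. The sign differed in 64, and 17 of the 27 fold changes kept their sign throughout; no direction is claimed for any of them. The calls among the 71 wider iron genes varied more. Between HFD and ND, 2 became 4 with DESeq2, which added Pcbp1 and Alas2, and 1 to 3 when 1 library was left out. The count was 0 in replicates 3 to 6 alone, where Ndufab1 stayed at a log2 fold change of -0.32 against -0.33 over all libraries and its standard error rose, and 0 with the erythroid covariate or without HFD 1 and HFD 4 together (chosen after seeing the data). Between SW and ND, 0 became 1, the gene Rc3h1, with the replicate sets as a factor and in replicates 3 to 6 alone. Rc3h1 was also called between HFD and ND in 4 fits, at edgeR adjusted p from 0.00536 to 0.0428. These had the replicate number as a block, the replicate sets as a factor, only the diets compared, or SW 1 left out. Over all libraries its log2 fold change was -0.27 for HFD against ND (edgeR adjusted p 0.122) and -0.29 for SW against ND (0.354). For any difference among diets, 1 became 4 with DESeq2, 2 with limma-voom or with no filter on low counts, 3 with the replicate sets as a factor, 0 with either FPKM test, with the erythroid covariate or without HFD 1 and HFD 4, and 0 to 2 when 1 library was left out. Over all genes that test called 123 in the main fit, 427 with DESeq2, 220 with limma-voom, 216 with no filter and 444 with the replicate sets as a factor. It called 77 and 90 with the FPKM tests, 77 with the erythroid covariate and 161 without HFD 1 and HFD 4. Leaving out 1 library gave 62 to 220. The cause of the other changes was not tested.

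With the replicate number as a block, SW against ND called 1 of the 71. The test of any difference called 3 of the 71, and 469 over all genes against 123 without the block. Over all genes the block gave 598 calls for HFD against ND, 49 for SW against ND and 138 for SW against HFD. Without it the calls were 222, 2 and 17. The shared numbers may not pair the samples: 5 of 18 libraries were most alike to their own number. Over all genes, DESeq2 called 471, 52 and 110, and limma-voom 359, 29 and 8. The fit with the erythroid covariate called 87, 19 and 3, and leaving out 1 library gave 89 to 301, 0 to 16 and 0 to 44. The replicate sets as a factor gave 535, 22 and 116, no filter 31 and 53 for the comparisons with SW, a fit of only the diets compared 19 and 0, either FPKM test 0 and 1, and leaving out HFD 1 and HFD 4 together 14 and 28. SW against ND also had 5 in replicates 3 to 6 alone and 1 with RLE or upper-quartile scaling.

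The correlation of Fth1 with Ftl1 was 0.469 in replicates 3 to 6, 0.164 in replicates 1 and 2 and 0.272 without SW 1 and HFD 4, none past the threshold, but 0.682 after each diet mean was removed and 0.652 on FPKM, both past it. Slc25a37 with Slc25a28 was -0.770 in replicates 1 and 2, Tfrc with Slc11a2 was 0.0218 in replicates 3 to 6, and Tfrc with Fth1 was 0.0507 after each diet mean was removed and 0.00512 without ND 1 and ND 3.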
